A study of Mus musculus with 4 samples.

Results

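Collagen genes were followed in whole spinal cord of mice at postnatal day 8. All gene symbols made of Col, a type number, the letter a and a chain number were taken from the deposited tables, which gave 42 collagen genes of 22096 gene symbols. They were divided by the type number into 11 fibrillar genes (types I, II, III, V, XI, XXIV and XXVII), 6 basement membrane genes (the chains of type IV) and 25 others. RNA sequencing had been done on 4 libraries. The 2 control libraries came from mice with 1 floxed and 1 unfloxed Chd7 allele and Cre recombinase driven from Olig1 (Chd7f/+; Olig1-cre), and the 2 conditional knockout (cKO) libraries from mice with floxed alleles only and the same Cre (Chd7f/f; Olig1-cre). Both groups carried the Cre, the controls were heterozygous, and the strain background was mixed. Chd7 encodes a chromatin remodeler, and Olig1 is a transcription factor gene of the oligodendrocyte lineage.

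Collagens are extracellular proteins built of 3 chains wound into a triple helix. Fibrillar collagens are trimmed outside the cell and pack into the banded fibrils of skin, bone, meninges and nerve sheaths. Type IV collagen forms the sheet-like network of basement membranes, which in the cord surround blood vessels and underlie the pia. The other types coat fibrils, form beaded filaments or short networks, span cell membranes, or sit at basement membranes. Cord parenchyma holds little fibrillar collagen, whereas meninges and nerve roots are rich in it.

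Values are FPKM, fragments per kilobase of transcript scaled to the mapped fragments of the library. For each gene, rows shorter than 300 bases were left out and the others added up. Sequencing depth relative to the shallowest library was 2.07 in control 1, 1.0 in control 2, 2.22 in cKO 1 and 3.19 in cKO 2. Relative depth is the median ratio of coverage to FPKM, since the tables hold no read counts. Groups were compared with limma on log2(FPKM + 1) over all 12913 genes with a mean of at least 1 FPKM, with p-values adjusted by the Benjamini-Hochberg method. A gene is said to have risen or fallen when its adjusted p was under 0.05. With 2 libraries a group, the spread of each gene was mostly pooled over genes (36.3 prior against 2 residual degrees of freedom). The p-values thus rest mostly on a spread between these libraries that is shared over genes, and little on the gene's own spread. The labels do not say whether the libraries of a group came from separate animals, so a spread between animals is not measured. Markers of the labelled tissue were present in every library. The summed level of 10 neuron markers was at least 1990 FPKM, that of 10 oligodendrocyte markers at least 6680 FPKM and that of 8 astrocyte markers at least 1440 FPKM. Chd7 was at 3.52, 3.12, 2.52 and 3.38 FPKM in control 1, control 2, cKO 1 and cKO 2, and it did not pass (log2 fold change -0.13 ± 0.16 SE, limma adjusted p = 0.657). The labels do not say which part of the gene is floxed, so this value checks the genotypes little.

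The fibril-forming chains of types I and III were lower in cKO cords, and no basement membrane chain passed the test. Of 29 collagen genes that reached the mean of 1 FPKM, Col1a1, Col1a2 and Col3a1 fell and Col11a1 rose. That is 3 of 29 lower where 6.54% of all tested genes fell, and 1 of 29 higher where 4.13% of all tested genes rose. The groups did not overlap, with cKO lower, in 9 of the 29 (29.3% of all tested genes) and, with cKO higher, in 4 of them (24.3% of all tested genes). All 3 falls and the rise were among the fibrillar genes. Their median log2 fold change was -0.26 over 11 tested members, against 0.09 over 3 basement membrane members, 0.001 over 15 others and -0.003 over all tested genes. These medians describe the classes and were not tested. In bulk tissue, fewer cells of a type and less RNA per cell cannot be told apart.

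The levels themselves were led by chains that are best known from cartilage. Col9a3, a chain of type IX, had the highest mean of all collagens at 47.8 FPKM, followed by Col11a2 of type XI at 25.5 FPKM. Col1a2, Col4a2 and Col4a1 came next at 18.8, 17.1 and 16.5 FPKM. Summed over all 42 genes, the collagen level was 271 FPKM in control 1, 250.2 in control 2, 208 in cKO 1 and 224 in cKO 2. Fibrillar chains made up 42.9% and 34.2% of that sum in controls 1 and 2, and 28.5% and 30.9% in cKO 1 and 2. Type IV chains made up 13.8%, 13.6%, 19.5% and 16.8% in the same order. The fibrillar share was thus lower in both cKO libraries than in either control, and control 1 stood above control 2.

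**Figure D1:**
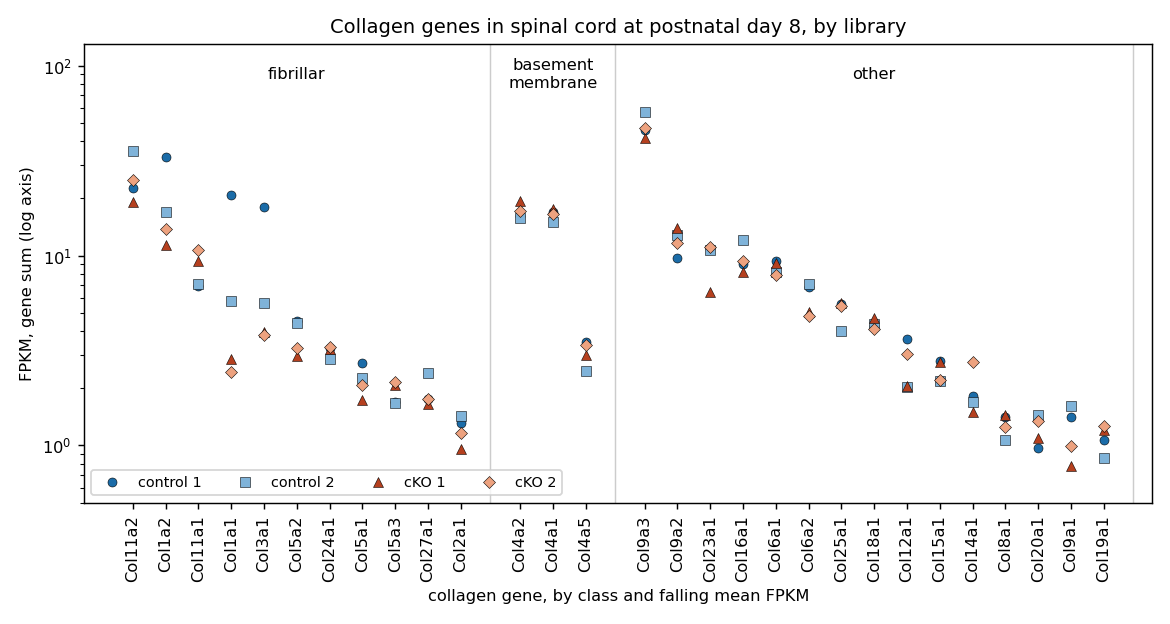
FPKM of the 29 tested collagen genes on a log axis, by class and falling mean, with 1 point for each of the 4 libraries. Control 1 stands far above the other libraries at Col1a1, Col3a1 and Col1a2, at 20.7, 17.9 and 32.97 FPKM, while the 4 libraries lie close together at Col4a1 and Col4a2.

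Type I collagen, the main protein of connective tissue fibrils, showed the widest range between libraries. Col1a1 (chromosome 11, 94797584 to 94813170 on mm9, 1 transcript) was at 20.7 FPKM in control 1, 5.77 in control 2, 2.85 in cKO 1 and 2.44 in cKO 2. Both controls lay above both cKO libraries, and control 1 lay 3.59-fold above control 2. Control libraries averaged 13.2 ± 10.6 FPKM and cKO libraries 2.65 ± 0.285 FPKM (SD, n = 2 a group), and Col1a1 fell by 1.74 ± 0.24 on the log2 scale (SE, limma adjusted p = 2.83e-06), which is 3.33-fold on the scale of FPKM + 1. Col1a2, the partner chain (chromosome 6, 4455697 to 4491543, 1 transcript), was at 32.97, 16.9, 11.4 and 13.7 FPKM in the same order of libraries. The groups again did not overlap, and Col1a2 fell by 0.87 ± 0.19 on the log2 scale (limma adjusted p = 0.00144). Col3a1, the chain of type III, which runs with type I in soft tissue (chromosome 1, 45368383 to 45406551, 1 transcript), was at 17.9, 5.61, 3.98 and 3.83 FPKM. It fell by 1.19 ± 0.23 on the log2 scale (limma adjusted p = 3.58e-04), and control 1 lay 3.20-fold above control 2 there too.

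The size of these falls rested largely on control 1. Without it, with control 2 as the lone control assumed to vary like the cKO libraries, Col1a1 still fell, by 0.90 on the log2 scale (limma adjusted p = 1.75e-05). Col1a2 and Col3a1 did not pass, at log2 fold changes of -0.40 and -0.43 (limma adjusted p = 0.184 and 0.105). Control 2 remained above both cKO libraries for all 3 genes, by 2.03-fold over the higher cKO library for Col1a1, 1.41-fold for Col3a1 and 1.23-fold for Col1a2. Without control 2 the log2 fold changes were -2.58, -1.33 and -1.95 for Col1a1, Col1a2 and Col3a1. With robust moderation, which lets genes of wide spread keep it, Col1a1 and Col3a1 did not pass (limma adjusted p = 0.425 and 0.523) and Col1a2 did. Under TPM and quantile scaling Col1a1 alone fell, where 3.56% and 3.21% of all tested genes fell. With no filter on low values, with all rows added up or with 1 row per gene no collagen passed, and the lowest limma adjusted p was 0.152, 0.154 and 0.206. In these settings only 0.179%, 0.228% and 0.13% of all tested genes fell, and the log2 fold changes of Col1a1 and Col3a1 stayed at -1.74 and -1.19.

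The controls also differed from each other. Between them, 4 of 29 collagens (Col1a1, Col1a2, Col3a1 and Col12a1) were at least 1.5-fold higher in control 1 on the scale of FPKM + 1, where 1.05% of all tested genes were. In the other direction 1 of 29, Col11a2, was at least 1.5-fold higher in control 2, where 1.32% of all tested genes were. These are single libraries compared with each other, with no test. Col1a1 was covered at a mean depth per base of 30.8 in control 1, 4.14 in control 2, 4.53 in cKO 1 and 5.59 in cKO 2. Control 2 was the shallowest library, and its FPKM was the closer of the controls to the cKO libraries.

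**Figure D2:**
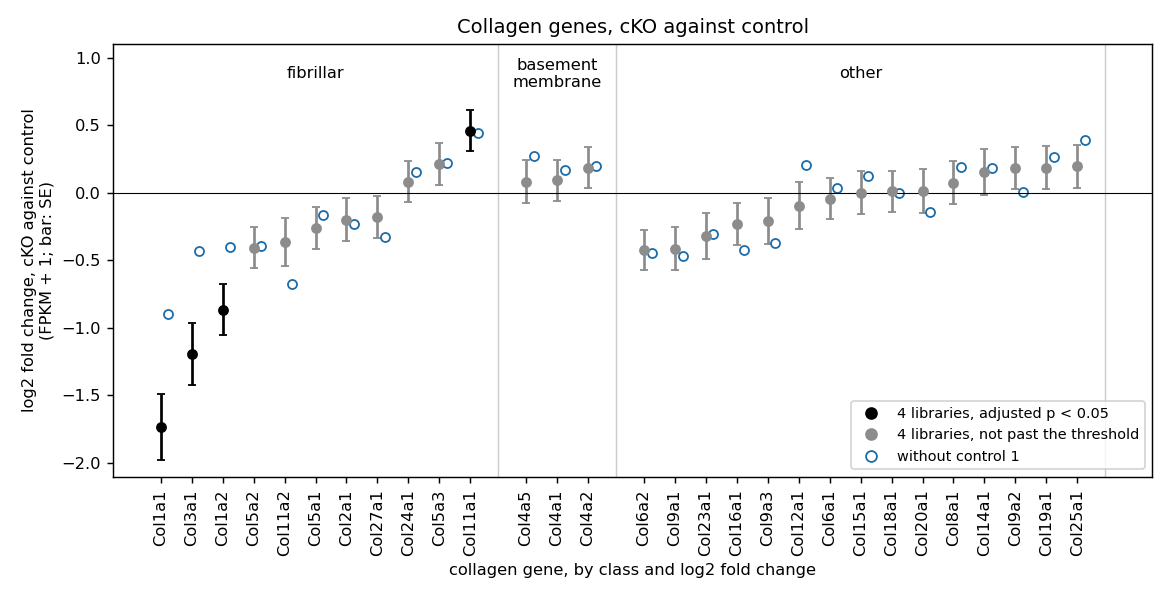
Log2 fold change of cKO against control on the scale of FPKM + 1 for each tested collagen gene, with bars for the standard error and open circles for the fit without control 1. Col1a1, Col3a1 and Col1a2 stand lowest at -1.74, -1.19 and -0.87 and move to -0.90, -0.43 and -0.40 without control 1, while most other genes move little.

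Control 1 was also highest in the sums of the lists for meningeal fibroblasts and for Schwann cells, although not for every listed gene. Bulk RNA does not show which cells expressed the listed genes. Of 16 genes listed as markers of meningeal fibroblasts, the summed level was 296 FPKM in control 1, 134 in control 2, 182 in cKO 1 and 158 in cKO 2. Among 12 tested members, 7 were at least 1.5-fold higher in control 1 than in control 2, 3 fell in cKO (Ptgds, Igf2 and Slc6a13) and Igfbp2 rose. For this and the next lists, the shares over all tested genes were 1.05% past that fold, 6.54% lower and 4.13% higher. Slc6a13 was under 1 FPKM in every library but control 1, which alone carried it past the filter of a mean of 1 FPKM. Ptgds, a prostaglandin synthase on this list, was at 161, 16.2, 4.57 and 7.54 FPKM in control 1 and control 2 and cKO 1 and 2. It fell with all libraries and without control 1, while Igf2 and Slc6a13 fell only with it (limma adjusted p = 0.0792 and 0.401 without it). Of 9 markers of Schwann cells, the myelinating cells of nerve roots, the summed level was 72.5, 27.8, 22.6 and 22.1 FPKM. Pmp22, a membrane protein of peripheral myelin and the highest of the list, was at 60.2, 22.8, 16.4 and 17.3 FPKM. The other 8 members, a sum added after the values were seen, came to 12.3, 5.01, 6.24 and 4.87 FPKM. There control 2 lay between the cKO libraries. Dhh was at 0.499, 0, 0.108 and 0.159 FPKM. Cdh19, with controls close together, was at 2.30, 2.35, 0.254 and 0.336 FPKM, so that it met the filter of a mean of 1 FPKM only through the controls. Of 4 tested members Pmp22 and Cdh19 fell and Sostdc1 rose, and without control 1 Pmp22 did not pass (limma adjusted p = 0.191). The summed level of Col1a1, Col1a2 and Col3a1 was 71.6, 28.3, 18.2 and 19.99 FPKM in the same order. Control 1 was thus the highest library in all 3 sums, while the meningeal sum was lower in control 2 than in either cKO library. That order came with Igfbp2, the highest gene of the list, at 64.1, 82.2, 143 and 118 FPKM. The other 15 members, a sum added after the values were seen, came to 232, 51.8, 38.4 and 40.1 FPKM, with both controls above both cKO libraries. Ptgds alone gave 161, 16.2, 4.57 and 7.54 FPKM of it, and the members did not all share that order. Aldh1a2, Crabp2, Dpt, Mgp, Serping1 and Slc6a20a were lower in control 2 than in either cKO library. Slc6a13, Slc22a8, Foxc1, Foxc2, Igf2 and Nov were, like Ptgds, higher in control 2 than in either. Of 10 oligodendrocyte markers 9 fell, and their sum was 16400 and 18700 FPKM for the controls and 6680 and 10500 FPKM in cKO 1 and 2. The part of these cells in the collagen result was not tested.

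Sums of the other marker lists were less far apart between the controls. The summed level of 8 skeletal muscle markers was lowest in control 1, at 2.39 FPKM, and 3.10 to 4.48 FPKM in the other libraries. That of 10 cartilage and bone markers was 11.7 and 13.7 FPKM for the controls and 10.8 and 9.59 FPKM in cKO 1 and 2. Bglap2, a bone marker, was listed at 0 in all 4 libraries. The sum of 7 microglia markers was 72.1 and 77.4 FPKM in controls 1 and 2 and 67.8 and 64.8 FPKM in cKO 1 and 2. Of these 7, 3 fell (Tmem119, P2ry12 and Cx3cr1) and 1 rose (C1qb), where 6.54% of all tested genes fell and 4.13% rose. Slc32a1 rose among 10 neuron markers and Slc1a3 among 8 astrocyte markers, and none of either list fell. For vessels, 12 endothelial markers summed to 144, 152, 159 and 128 FPKM and 10 mural cell markers to 76.8, 62.8, 69.1 and 74.3 FPKM, and none of the 21 tested members of these lists passed limma.

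**Figure D3:**
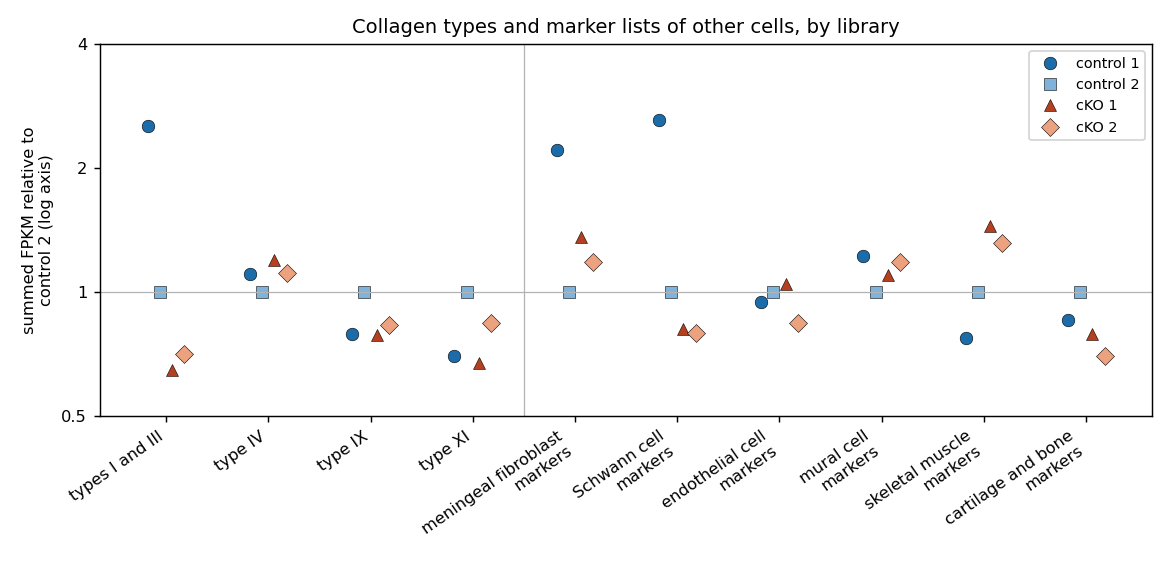
Summed FPKM of collagen types and of marker lists in each of the 4 libraries, relative to control 2, on a log axis. Control 1 stands highest for types I and III, for the meningeal fibroblast and Schwann cell markers and, by less, for the mural cell markers. For types IX and XI it stands below control 2.

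The stretches before the start sites of 3 of the 4 genes that passed are shown, to set the falling chains beside the rising one. They are the 250 bases before the RefSeq start on GRCm38.p6, printed 5′ to 3′ on the gene's strand. Capitals mark every match on either strand to the TATA motif TATAAA, the CCAAT box and the GC box GGGCGG.
Col1a2 (chr6:4505368-4505617, plus strand): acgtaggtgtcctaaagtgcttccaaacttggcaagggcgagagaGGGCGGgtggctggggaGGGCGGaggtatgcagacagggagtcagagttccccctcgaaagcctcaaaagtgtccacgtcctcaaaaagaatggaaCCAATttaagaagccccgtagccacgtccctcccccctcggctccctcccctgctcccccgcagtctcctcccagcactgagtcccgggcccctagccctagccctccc
Col3a1 (chr1:45311288-45311537, plus strand): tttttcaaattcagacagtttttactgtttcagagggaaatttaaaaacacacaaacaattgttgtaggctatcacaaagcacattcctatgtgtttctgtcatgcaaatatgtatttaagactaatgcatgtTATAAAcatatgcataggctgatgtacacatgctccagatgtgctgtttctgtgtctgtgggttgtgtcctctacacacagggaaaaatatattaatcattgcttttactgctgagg
Col11a1 (chr3:114030290-114030539, plus strand): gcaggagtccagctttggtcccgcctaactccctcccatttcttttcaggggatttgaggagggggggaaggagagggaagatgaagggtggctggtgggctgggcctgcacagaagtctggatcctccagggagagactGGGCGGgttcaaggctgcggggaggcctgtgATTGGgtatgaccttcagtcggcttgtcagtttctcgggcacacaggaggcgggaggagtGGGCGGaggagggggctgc
The 2 falling chains differed in these letters. Col1a2 holds GC boxes that begin 205 and 188 bases before the start and a CCAAT box 109 bases before it, in a window of 62.0% G and C. Col3a1 holds a TATAAA 117 bases before the start and neither of the other motifs, at 35.2% G and C, against a median of 52.4% over all windows. Col11a1 holds GC boxes 110 and 19 bases before the start and a reversed CCAAT box 79 bases before it, at 62.4% G and C. Over the first 250 bases of the windows of all 27025 genes, 14.3% held TATAAA, 37.5% CCAAT and 35.4% GGGCGG on either strand. Of 34 collagen genes with a window, 5, 13 and 21 did. A match is a description of letters and not evidence of a bound factor.

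Of the other 8 fibrillar chains Col11a1 alone passed. Col11a1, a minor fibril chain (chromosome 3, 113733458 to 113923244), was at 6.92 and 7.11 FPKM for the controls and at 9.40 and 10.7 FPKM in cKO 1 and 2. The groups did not overlap and the controls lay close together, and Col11a1 rose by 0.46 ± 0.15 on the log2 scale (limma adjusted p = 0.0412). The direction was the same in 15 of 15 alternatives (0.38 to 0.54), but it passed in only 3 of them (limma adjusted p = 0.0273 to 0.256), and it was lost without any 1 of the 4 libraries. Its partner Col11a2 (chromosome 17, 34176382 to 34203187) went the other way in sign, at 22.7 and 35.3 FPKM in control 1 and control 2 and 19.02 and 24.9 FPKM in cKO 1 and 2. The groups overlapped there, and its log2 fold change of -0.36 ± 0.18 did not pass (limma adjusted p = 0.196), although without control 1 it fell (-0.67, limma adjusted p = 0.0157).

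Type V chains co-assemble with type I and limit fibril width, and none of the 3 passed. Col5a2, which lies 24624 bases from Col3a1 on chromosome 1, was at 4.50 and 4.401 FPKM for the controls and 2.96 and 3.27 FPKM in cKO 1 and 2. Its controls differed by 1.02-fold, unlike those of its neighbour, the groups did not overlap, and its log2 fold change was -0.41 ± 0.15 (limma adjusted p = 0.0771). Col5a1 was at 2.73, 2.26, 1.74 and 2.08 FPKM (limma adjusted p = 0.316). Col5a3 stood the other way, at 1.70 and 1.68 FPKM for the controls and 2.08 and 2.15 FPKM in cKO (limma adjusted p = 0.426). Col2a1, the main chain of cartilage fibrils, was low at 1.31, 1.42, 0.955 and 1.17 FPKM. Col24a1 and Col27a1 lay within 2.84 to 3.31 FPKM and 1.65 to 2.40 FPKM in all libraries, with log2 fold changes of 0.08 ± 0.15 and -0.18 ± 0.16.

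The tested basement membrane chains ranged less between the 4 libraries than Col1a1, Col1a2 and Col3a1. Col4a1 (chromosome 8, 11198423 to 11312826) was at 16.9 and 15.1 FPKM for the controls and 17.6 and 16.5 FPKM in cKO 1 and 2. Col4a2 starts 2 bases away on the opposite strand (11312829 to 11449287) and was at 16.1, 15.8, 19.4 and 17.2 FPKM. These chains wind together in the vascular basement membrane, and their ratio, Col4a1 over Col4a2, was 1.05, 0.955, 0.910 and 0.959. Their log2 fold changes of 0.09 ± 0.15 and 0.18 ± 0.15 did not pass (limma adjusted p = 0.775 and 0.502), and the controls differed by 1.12-fold and 1.02-fold where those of Col1a1 differed by 3.59-fold. Both cKO libraries lay above both controls for Col4a2, an order that 24.3% of all tested genes shared. Col4a5 (chromosome X) was at 3.51, 2.46, 2.99 and 3.38 FPKM, with a log2 fold change of 0.08 ± 0.16 (limma adjusted p = 0.806). Its controls differed by 1.43-fold. None of the 3 tested type IV chains passed, and none had an unadjusted p under 0.05. Col4a3, Col4a4 and Col4a6, known from kidney and other specialised membranes, stayed between 0.087 and 0.618 FPKM and were not tested.

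Type VI collagen forms beaded filaments next to basement membranes and around fibroblasts. Its chains lay at different distances from the threshold. Col6a2 was at 6.82 and 7.05 FPKM for the controls and 5.02 and 4.803 FPKM in cKO 1 and 2. The groups did not overlap and each pair of libraries lay close, and its log2 fold change of -0.42 ± 0.15 missed the threshold (limma adjusted p = 0.0598). It passed with robust moderation (limma adjusted p = 0.0466). Col6a1, 85387 bases away on chromosome 10, was at 9.32, 8.23, 9.09 and 7.89 FPKM, with overlapping groups (log2 fold change -0.04 ± 0.15). The ratio of Col6a1 to Col6a2 was 1.37 and 1.17 in the controls and 1.81 and 1.64 in cKO 1 and 2.

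The fibril-associated collagens with interrupted helices were led by type IX, and none of the 8 tested members passed. Col9a3 was at 45.6 and 57.3 FPKM for the controls and 41.5 and 46.8 FPKM in cKO 1 and 2, with overlapping groups (log2 fold change -0.21 ± 0.17). Col9a2 was at 9.73, 12.8, 14.01 and 11.7 FPKM, also overlapping. Col9a1 was at 1.41 and 1.61 FPKM for the controls and 0.777 and 0.998 FPKM in cKO 1 and 2. Its groups did not overlap, and its log2 fold change of -0.41 ± 0.16 did not pass (limma adjusted p = 0.0902). Type IX protein is known as a trimer of these chains, yet at the RNA level Col9a3 exceeded Col9a1 by 32.2-fold and 35.6-fold in the controls and by 53.4-fold and 46.9-fold in cKO 1 and 2.

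Among the remaining fibril-associated members, Col16a1 was at 9.002, 12.1, 8.17 and 9.34 FPKM (log2 fold change -0.23 ± 0.16). Col12a1 was at 3.61, 2.03, 2.05 and 3.02 FPKM, so that control 1 and cKO 2 were the high libraries. Col14a1 was highest in cKO 2, at 2.75 FPKM, against 1.49 to 1.82 FPKM elsewhere. Col19a1, known from interneurons that form synapses, was at 1.07, 0.858, 1.20 and 1.26 FPKM, and Col20a1 at 0.972, 1.45, 1.098 and 1.34 FPKM.

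The membrane-spanning collagens behaved differently from each other. Col23a1 was at 10.98, 10.7 and 11.1 FPKM in control 1, control 2 and cKO 2 and at 6.40 FPKM in cKO 1. Its group difference (log2 fold change -0.32 ± 0.17, limma adjusted p = 0.240) moved with 1 library: it was 0.03 without cKO 1, and without cKO 2 it fell (-0.68, limma adjusted p = 0.0151). Col25a1, a neuronal collagen whose shed ectodomain binds amyloid, was at 5.54, 4.00, 5.63 and 5.45 FPKM. The multiplexins Col15a1 and Col18a1, which sit at vessel basement membranes, had log2 fold changes of 0.001 ± 0.16 and 0.01 ± 0.15. Col18a1, the source of endostatin, was at 4.27, 4.38, 4.66 and 4.08 FPKM and Col15a1 at 2.79, 2.19, 2.76 and 2.22 FPKM. Col8a1, a short-chain collagen of vessel walls, was at 1.42, 1.06, 1.45 and 1.25 FPKM. Of the 15 tested genes outside the fibrillar and type IV chains, none passed in limma, and 2 (Col6a2 and Col9a1) had an unadjusted p under 0.05.

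The 13 members below a mean of 1 FPKM were Col4a3, Col4a4, Col4a6, Col6a4, Col6a5, Col6a6, Col7a1, Col8a2, Col10a1, Col13a1, Col17a1, Col22a1 and Col28a1. Their values ran from 0.029 to 0.666 FPKM over all libraries. On each side of the threshold stood Col8a2, with a mean of 0.551 FPKM, and Col19a1, with a mean of 1.099 FPKM. Col10a1, the collagen of cartilage that turns to bone, was among these low genes. Several members have more than 1 RefSeq transcript, whose values share reads and are uncertain. For Col2a1 the longer transcript took 60.9% and 61.9% of the gene's FPKM in control 1 and cKO 2 but 0.00568% and 17.8% in control 2 and cKO 1. For Col4a5 the longer transcript took 85.3% in control 1 and 54.2%, 44.8% and 56.8% in control 2, cKO 1 and cKO 2. For Col18a1, the shorter transcript held at least 94.9% in every library.

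Ratios of chains within a library do not change when a library is scaled by a common factor. In type I protein the Col1a1 chain outnumbers the Col1a2 chain, yet at the RNA level per length Col1a1 was the lower in all 4 libraries. Col1a1 over Col1a2 was 0.628 in control 1, 0.342 in control 2, 0.249 in cKO 1 and 0.178 in cKO 2, so that both controls lay above both cKO libraries. Col1a1 over Col3a1 was 1.16 and 1.03 in the controls and 0.716 and 0.639 in cKO 1 and 2. Col3a1 over Col1a2 did not separate the groups, at 0.544, 0.332, 0.349 and 0.279. Col5a1 over Col1a1 was 0.132 and 0.392 in the controls and 0.613 and 0.852 in cKO 1 and 2. These ratios were not tested.

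Genes that make and handle collagen are needed to turn chains into a matrix. The lists held 84 genes that modify, export, cross-link, bind or degrade collagen, and 67 were tested. Of these 11 fell and 0 rose, where 6.54% of all tested genes fell and 4.13% rose. Among the 11, Ogn reached the mean of 1 FPKM only through control 1. P4ha2 rose with robust moderation, and P4ha2 and Creb3l1 rose without control 2. Of all tested genes, 5.77% fell without control 1, 7.12% without control 2, 2.12% without cKO 1 and 5.88% without cKO 2. The median log2 fold change of the 67 was -0.11. Without control 1, 5 of them fell (P4ha1, Plod2, Colgalt2, Ddr1 and Fmod), and without cKO 1, 3 did (Ctsk, Dcn and Ogn). Without control 2, Ddr1 and Hspg2 no longer passed, and without cKO 2, Ctsk, Hspg2 and Mia3 no longer did. The count that fell was 4 with median-of-ratios scaling, 1 with TPM scaling and 2 with quantile scaling, where 4.36%, 3.56% and 3.21% of all tested genes fell.

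Of 17 genes that modify and fold the chains, P4ha1, Plod2 and Colgalt2 fell. P4ha1, a prolyl hydroxylase subunit that stabilises the helix, was at 7.43 and 8.73 FPKM for the controls and 4.799 and 4.96 FPKM in cKO 1 and 2 (log2 fold change -0.62 ± 0.15, limma adjusted p = 0.00450). Plod2, a lysyl hydroxylase that prepares cross-links, was at 8.23, 8.12, 4.67 and 5.64 FPKM (limma adjusted p = 0.00849). Colgalt2, a collagen galactosyltransferase listed as Glt25d2, was at 4.10, 3.70, 1.77 and 2.98 FPKM (limma adjusted p = 0.0197). For these genes the controls lay close together and control 1 was not set apart, unlike types I and III. P4ha1, Plod2 and Colgalt2 did not pass without cKO 1. Their log2 fold changes there were -0.60, -0.47 and -0.30, against -0.62, -0.58 and -0.56 with all libraries. Ppib and P4hb, the most abundant of the list, were at 72.4 to 89.0 FPKM and 69.0 to 78.7 FPKM and did not pass. Serpinh1, the collagen chaperone HSP47, was at 28.2, 33.8, 31.6 and 29.7 FPKM (log2 fold change -0.01 ± 0.16).

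Of 9 tested genes of export and trimming, Pcolce and Mia3 fell. Pcolce, which enhances the cutting of procollagen I and III, was at 4.56, 2.48, 1.73 and 1.84 FPKM (log2 fold change -0.66 ± 0.17, limma adjusted p = 0.00861), with control 1 at 1.84-fold of control 2. Without control 1 it did not pass (limma adjusted p = 0.287). Mia3, the export receptor TANGO1, was at 23.8, 19.9, 14.5 and 15.03 FPKM (limma adjusted p = 0.0208). None of the 4 tested cross-linking genes passed. Lox, a lysyl oxidase below the threshold, was at 0.970 FPKM in control 1 and at 0.112 to 0.189 FPKM in the other 3 libraries.

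Small proteoglycans coat fibrils and set their spacing. Of 10 tested genes in this group Dcn, Ogn and Fmod fell. Decorin, Dcn, was at 11.2, 3.66, 2.79 and 2.76 FPKM (log2 fold change -0.996 ± 0.22, limma adjusted p = 0.00162), and Ogn at 2.99, 0.532, 0.246 and 0.261 FPKM (limma adjusted p = 0.00272). Control 1 was 3.04-fold and 5.63-fold above control 2 for these, and neither passed without control 1 (limma adjusted p = 0.321 and 0.351). Ogn was under 1 FPKM in every library but control 1, which alone carried it past the filter of a mean of 1 FPKM. Fmod had controls at 7.73 and 7.58 FPKM and cKO 1 and 2 at 3.21 and 6.74 FPKM (log2 fold change -0.60, limma adjusted p = 0.0240). Without cKO 1 its log2 fold change was -0.16 (limma adjusted p = 0.922). Sparc, a collagen-binding glycoprotein of glia and vessels, was the most abundant at 377 to 423 FPKM and did not pass.

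Of 11 genes whose products share the basement membrane with type IV, Hspg2 (perlecan) fell, from 3.67 and 3.64 FPKM to 2.28 and 2.52 FPKM (limma adjusted p = 0.0466). Hspg2 did not pass when any single library was left out, at log2 fold changes of -0.506 to -0.405. Agrn and Nid1, the most abundant, were at 45.2 to 53.7 FPKM and 19.5 to 29.2 FPKM and did not pass. Of 7 tested collagen receptors Ddr1, a receptor tyrosine kinase that oligodendrocytes express, fell, from 49.2 and 60.9 FPKM in the controls to 30.6 and 41.4 FPKM in cKO 1 and 2 (log2 fold change -0.61 ± 0.17, limma adjusted p = 0.0186). Ddr1 did not pass without control 2 (log2 fold change -0.455) or without cKO 1 (-0.395). Without control 1 and without cKO 2 its log2 fold change was -0.76 and -0.82. Adgrg1, the type III collagen receptor GPR56 of glial precursors, listed as Gpr56, was at 55.7, 61.8, 70.5 and 73.6 FPKM and did not pass (limma adjusted p = 0.315). Of 9 tested genes of breakdown, Ctsk, a collagen-cutting cathepsin, fell, from 6.70 and 5.73 FPKM to 4.49 and 3.47 FPKM (limma adjusted p = 0.0177). The protease Mmp15 and the inhibitor Timp2, the most abundant of the list, did not pass, nor did Mmp2 and Mmp14.

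**Figure D4:**
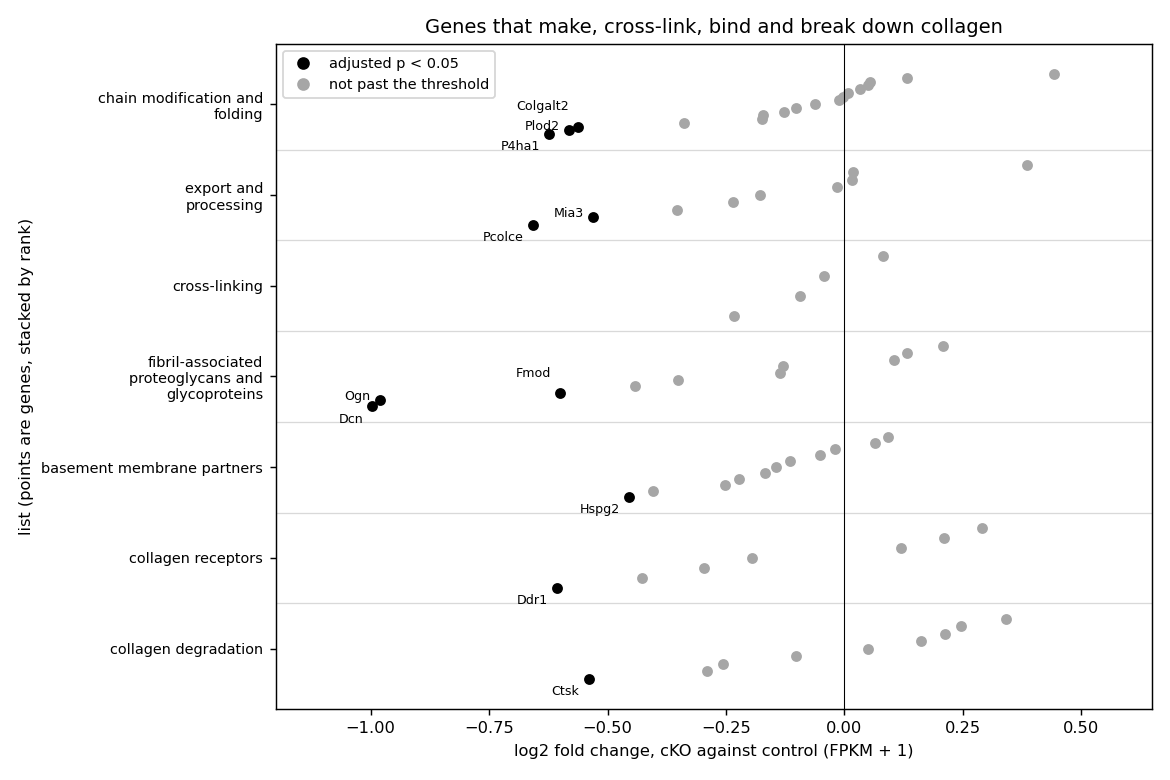
Log2 fold change of cKO against control on the scale of FPKM + 1 for the 67 tested genes that make, cross-link, bind or break down collagen, by list, with filled black points for an adjusted p under 0.05. The 11 black points all lie below 0, with Dcn and Ogn lowest at -0.996 and -0.981. Ogn reached the mean of 1 FPKM needed for the test only through control 1.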

How the data were processed

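The files used here hold 4 libraries of spinal cord RNA, prepared with a TruSeq RNA kit per the labels' protocols. The authors deposited FPKM per RefSeq transcript and a coverage value, the signal averaged over each transcript's bases, per the file headers. Per the submitters' processing notes the tools were CASAVA, TopHat, Cufflinks and Cuffdiff, with no version given, on build mm9. Each table had 28107 transcript rows, matched across libraries, and 315 rows with a status other than OK were left out, none of them a collagen. All 47 collagen rows were longer than 300 bases. Gene sums were fitted in R 4.3.3 with limma 3.58.1 by genotype, with a mean-variance trend and a pseudocount of 1, and the code was tested on simulated data. Starts were raised by 1 to count from 1. The members, gene lists and tests were chosen with earlier results of these data known. Tested collagens were named, and from each list of collagen-handling genes up to 4 that passed and up to 2 of the highest level. Marker lists were given by sums. Lox, Serpinh1, P4ha2, Creb3l1, Mmp2, Mmp14 and the marker genes other than Igfbp2, Pmp22 and Bglap2 were chosen after their values were seen. Alternatives covered scaling, pseudocount, filters, moderation, row choice, a replicate block, each library and the class limits. Sequences are from RefSeq windows on GRCm38.p6, with 34 collagen genes matched by symbol. A marker gene of the Schwann cell list is not reported here and was left out of its sum.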

Additional observations from a re-analysis of the deposited data

How the results depend on the processing

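The number of collagen genes that fell was 3 in limma with median-of-ratios scaling, a pseudocount of 0.1, all status values kept, no mean-variance trend or a replicate block, and 2 with robust moderation, of which 1 was fibrillar and 1 (Col6a2) was not. Under TPM scaling and quantile scaling 1 fell, the fibrillar Col1a1. With no filter on low values, all rows summed per gene or the highest single transcript row per gene 0 fell and 0 rose, with 10, 7 and 7 collagens at an unadjusted p under 0.05, where 0.179%, 0.228% and 0.13% of all tested genes fell. In those 3 settings 0 of the genes that make and handle collagen fell, and of them 4 fell with median-of-ratios scaling, 1 with TPM scaling and 2 with quantile scaling, where 4.36%, 3.56% and 3.21% of all tested genes fell. Of the same genes 1 rose with robust moderation and 2 rose without control 2. The count of collagen genes that rose was 0 under the 3 scalings, with no mean-variance trend and with the replicate block. Leaving out each library gave 2 to 4 collagens that fell (fibrillar 2 to 3, others 0 to 1), 0 that rose, and 3 to 12 genes that make and handle collagen that fell. Without control 1, control 2, cKO 1 and cKO 2 in turn, 5.77%, 7.12%, 2.12% and 5.88% of all tested genes fell. In the same order 3.58%, 4.14%, 0.86% and 4.31% rose. Class medians without each library ran from -0.35 to -0.16 for fibrillar, 0.01 to 0.20 for basement membrane and -0.07 to 0.01 for other collagens (0.014 to 0.199 and -0.066 to 0.012). The fibrillar median was -0.36 (-0.365) with a pseudocount of 0.1, and the median of the others was 0.07 (0.067) under quantile scaling and -0.04 (-0.043) with types XV and XVIII moved to the basement membrane class. At a fold of 2, 2 collagens instead of 4 were higher in control 1 than in control 2. The direction of Col1a1, Col1a2, Col3a1 and Col11a1 was the same in all 15 alternatives, and they passed in 11, 9, 8 and 3 of them. The cause of each change was not tested. The labels give the groups the same replicate numbers without saying that a number is shared material. The deviations of control 1 and cKO 1 from their group means correlated at -0.24 across 12913 genes. The replicate block, at 2 pairs, left 3 collagens lower and 0 higher and 9 instead of 11 of the genes that make and handle collagen lower. Control 2 was the shallowest library, so low values are least certain there.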
